A study of Homo sapiens with 6 samples.

Results

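The 43 genes described here encode proteins that copy DNA or divide the cell, and they were taken by gene symbol from a fixed list. All 43 were among the 21301 genes of the RNA-seq table and among the 19694 genes that had enough counts to be tested. They were described as 20 genes of the G1/S transition and of DNA replication, and 23 genes of the G2/M transition and of mitosis. RNA was sequenced from SH-SY5Y cells, a human neuroblastoma line, 72 h after transfection with 10 nM of siPSF or of the control siRNA siControl, as 3 libraries per group. PSF is an RNA-binding protein of the nucleus encoded by SFPQ. The comparison asked which transcripts differed when this protein was reduced. All libraries came from the same cell line and, per the study's methods, 1 siRNA sequence, so the effect of the siRNA itself and that of losing PSF cannot be told apart. The replicates are called biological in the study's methods, while the labels do not say how the cultures were separated, so the p-values measure the spread between these libraries.

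A dividing cell duplicates its DNA in S phase and separates the copies in mitosis, and the genes for each task are transcribed in waves. Cyclin D and cyclin E kinases release E2F transcription factors in G1, and E2F drives the genes for the replication machinery. Later, the MuvB complex with B-MYB and FOXM1 drives the genes for the mitotic kinases, the spindle and the kinetochore. Neuroblastoma lines proliferate in culture, and both sets had reads in every library, as did every gene in the table. In RNA from whole cultures, fewer cells in a phase and less of a transcript per cell cannot be told apart.

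The siPSF libraries had lower SFPQ levels than the siControl libraries. In CPM (read counts per 1000000 counts of a library, scaled with edgeR's TMM factors), SFPQ was at 372, 356 and 401 in siControl and at 209, 193 and 165 in siPSF. The groups did not overlap, and SFPQ fell by 0.99 on the log2 scale (SE 0.10; adjusted p = 9.5e-05, quasi-likelihood F test of edgeR, Benjamini-Hochberg adjusted, n = 3 per group). A difference was called at an adjusted p under 0.05 from that test throughout. The libraries held 101540520 to 132420931 counts, with the lowest total in siPSF 3. Of 10 noradrenergic neuroblastoma markers, all had reads in every library, as did every gene in the table. HAND2 and GATA2 were at means above 200 CPM, but TH, the enzyme of catecholamine synthesis, was at only 0.17 to 0.84 CPM. The 10 noradrenergic markers summed to 5288 to 6023 CPM in siControl and 4636 to 5227 CPM in siPSF, with 3 called lower (TH, DBH and TFAP2B) and 1 higher (GATA3). Their median log2 fold change was -0.004. The 8 mesenchymal-type markers tested summed to 347 to 364 CPM in siControl and 319 to 342 CPM in siPSF, and FN1 alone was called, lower. Their median log2 fold change was 0.05, with 4 of the 8 above zero, so the lower sum was not shared by all of them. The part of these shifts in the results below was not tested.

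Some genes of each set fell in the siPSF libraries and none rose. In the G1/S and replication set, 5 of 20 genes fell (25%) and 0 rose: the E2F factors E2F1 and E2F2, the cyclins CCND1 and CCNE2, and GINS2, a subunit of the replicative helicase. In the G2/M and mitosis set, 4 of 23 fell (17.4%) and 0 rose: MKI67, AURKB, CENPF and FOXM1. Among all 19694 genes tested, 8.27% were called lower and 6.65% higher, and among the 11107 protein-coding genes averaging 5 CPM or more, 8.66% were called lower. The called falls ran from 0.30 for CENPF to 0.78 for CCND1 on the log2 scale, that is, to between 81.4% and 58.1% of the siControl level.

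The other 34 genes were not called, and most of them lay slightly below zero. A negative log2 fold change was fitted for 19 of the 20 G1/S genes and for 20 of the 23 G2/M genes, against 48.4% of all genes tested. The median was -0.18 over the G1/S set and -0.10 over the G2/M set, beside 0.01 over all genes. The 3 siPSF values were all under the lowest siControl value for 11 G1/S genes (55%) and 4 G2/M genes (17.4%), an arrangement found in 17.8% of all genes. The G2/M share was thus no higher than that of all genes. The opposite arrangement was found for 1 of the 43, CCNB1, and in 16.7% of all genes. At an unadjusted p under 0.05, 10 G1/S and 7 G2/M genes were lower and 0 were higher. Of all 19694 genes tested, 3026 were lower and 2835 higher at that threshold. The difference between the 2 sets was not tested.

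**Figure D1:**
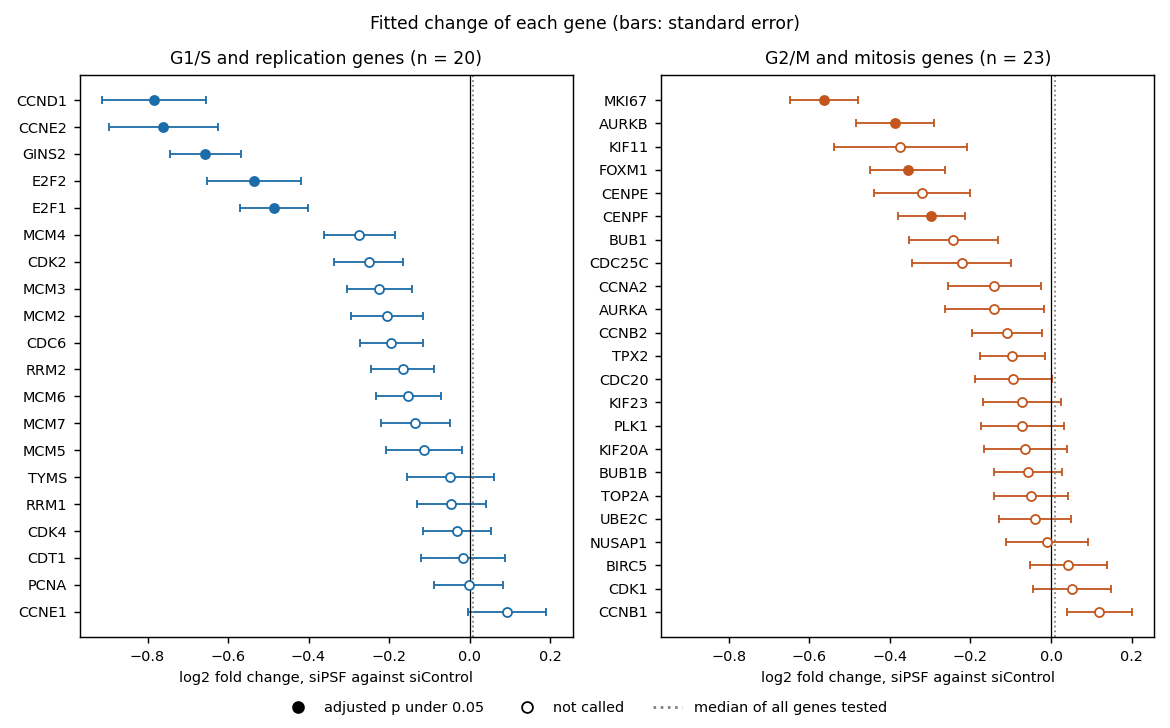
Fitted log2 fold change of siPSF against siControl for the 20 G1/S and replication genes (left) and the 23 G2/M and mitosis genes (right), with bars for the standard error. Filled points are genes with an adjusted p under 0.05; CCND1 at -0.78 and MKI67 at -0.56 are the lowest in their panels, and most open points lie between zero and -0.37.

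**Figure D2:**
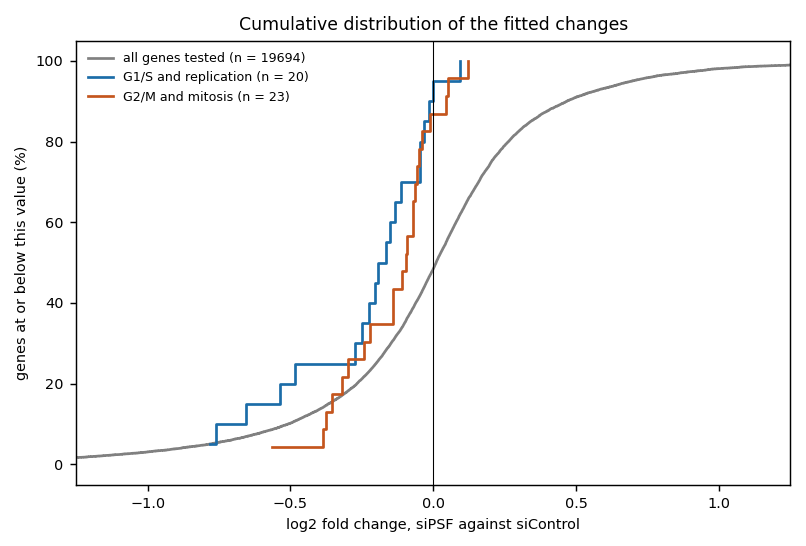
Cumulative share of genes (percent) at or below each log2 fold change, for all 19694 genes tested (grey), the 20 G1/S genes (blue) and the 23 G2/M genes (orange). At a log2 fold change of zero the grey curve stands at 48.4%, the blue curve at 95% and the orange curve at 87.0%.

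The proximal promoters of some of these genes are shown because the sets are known for different promoter elements, E2F sites in G1/S genes and the cell cycle homology region (CHR) beside CCAAT boxes in G2/M genes. Promoter windows from 250 bases before to 50 after the annotated start were matched by gene identifier for 33 of the 43 genes. They came from a set of 27305 RefSeq windows (GRCh38.p14). The called genes CCND1, CCNE2 and FOXM1 were among those without an entry in that set. Printed are the 150 bases before the start, in the gene's own direction, of 4 genes that fell and of the G2/M genes CCNB2 and PLK1, which were not called. They are examples and do not stand for their sets. The called genes AURKB and CENPF also had an entry but are not printed. AURKB had no CHR letters, and those of CENPF lay after the start. The uncalled G2/M genes CCNA2, CCNB1 and CDC25C had no CHR letters either. Capitals mark the E2F letters TTTCCCGC, TTTCGCGC, TTTGCCGC or TTTGGCGC, the CHR letters TTTGAA or TTCGAA, and CCAAT, each on either strand. E2F1 lies at chr20:33686386-33686535 (minus strand), E2F2 at chr1:23531234-23531383 (minus), GINS2 at chr16:85688955-85689104 (minus), MKI67 at chr10:128126424-128126573 (minus), CCNB2 at chr15:59104996-59105145 (plus) and PLK1 at chr16:23678739-23678888 (plus).
E2F1: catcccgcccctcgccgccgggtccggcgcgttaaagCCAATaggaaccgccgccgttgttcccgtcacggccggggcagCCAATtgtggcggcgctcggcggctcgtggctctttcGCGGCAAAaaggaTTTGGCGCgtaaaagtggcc
E2F2: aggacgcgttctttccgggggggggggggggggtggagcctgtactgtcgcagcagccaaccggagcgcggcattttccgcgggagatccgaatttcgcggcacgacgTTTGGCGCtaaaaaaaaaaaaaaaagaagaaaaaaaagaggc
GINS2: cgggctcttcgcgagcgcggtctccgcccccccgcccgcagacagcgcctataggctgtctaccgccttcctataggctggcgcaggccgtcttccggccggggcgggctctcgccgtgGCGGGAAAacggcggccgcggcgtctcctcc
MKI67: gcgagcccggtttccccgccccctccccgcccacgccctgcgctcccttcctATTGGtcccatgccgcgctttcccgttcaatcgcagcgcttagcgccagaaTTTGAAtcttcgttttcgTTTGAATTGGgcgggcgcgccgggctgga
CCNB2: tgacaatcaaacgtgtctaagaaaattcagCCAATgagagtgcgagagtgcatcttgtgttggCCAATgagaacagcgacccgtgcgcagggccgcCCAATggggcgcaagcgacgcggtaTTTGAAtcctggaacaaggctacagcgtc
PLK1: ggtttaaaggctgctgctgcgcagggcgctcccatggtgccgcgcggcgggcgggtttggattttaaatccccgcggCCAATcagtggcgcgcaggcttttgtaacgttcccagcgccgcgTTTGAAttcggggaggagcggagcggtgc

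The E2F letters stood in the windows of E2F1, E2F2 and GINS2, and the CHR letters in those of MKI67, CCNB2 and PLK1. In MKI67 a CHR match overlaps a reversed CCAAT. Over the full windows, 11 of the 15 G1/S genes with a promoter entry had E2F letters, against 2 of the 18 G2/M genes (CDK1 and NUSAP1). E2F letters stood in 3.33% of all RefSeq windows and in 5.08% of the 13167 windows of tested genes. CHR letters stood in 2 of 15 G1/S and 12 of 18 G2/M windows, in 16.6% of all and in 11.1% of those of tested genes. CCAAT was present in 9 of 15 and 15 of 18, beside 35.7% of all and 36.0% of those of tested genes. Of the 13 genes with an entry and E2F letters, 3 fell (median log2 fold change -0.15), and of the 20 without them, 3 fell (median -0.10). For CHR letters, 2 of the 14 genes with them fell (median -0.08), and 4 of the 19 without them (median -0.17). Outside the list, 656 tested genes had E2F letters, with a median of -0.01 and 8.99% called lower, beside 8.49% of the 12478 genes without them. For CHR letters the shares were 9.16% of 1452 genes with them and 8.43% of 11682 without. These matches describe letters in a window and were not read as binding sites.

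The E2F factors, which switch on replication genes at the G1/S boundary, were both lower in siPSF. E2F1 was at 113, 125 and 106 CPM in siControl and at 79.6, 83.8 and 82.7 CPM in siPSF. All 3 siPSF libraries lay together below the control range, and E2F1 fell by 0.49 on the log2 scale (SE 0.09, adjusted p = 0.0028). E2F2 was at 69.7, 78.1 and 71.1 CPM in siControl and at 53.7, 56.5 and 40.8 CPM in siPSF, with siPSF 3 the lowest. Its log2 fold change was -0.54 (SE 0.12, adjusted p = 0.0097), and without siControl 2 it was no longer called (adjusted p = 0.052).

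Among the cyclins and kinases of G1 and of S phase entry, the transcripts of a D cyclin and of an E cyclin fell and those of the kinases were not called. CCND1, which encodes cyclin D1, the partner of CDK4 and CDK6, was at 1319, 1403 and 1553 CPM in siControl and at 951, 883 and 649.8 CPM in siPSF. The 2 ranges lay far apart, with siPSF 3 lowest again, and CCND1 fell by 0.78 on the log2 scale (SE 0.13, adjusted p = 0.0020). It had the highest level per length of the 43 genes, at 314 ± 33.2 FPKM in siControl and 173 ± 34.1 FPKM in siPSF (mean ± SD, n = 3; fragment counts scaled by exon length and library size, as deposited). CCNE2, a cyclin that activates CDK2, was a low transcript at 6.21, 7.05 and 7.80 CPM in siControl and 4.34, 3.82 and 4.27 CPM in siPSF. Every siPSF value was below every control value, and CCNE2 fell by 0.76 on the log2 scale (SE 0.14, adjusted p = 0.0031).

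CCNE1, the other E cyclin, had the only positive value in the G1/S set, and did not pass the test (log2 fold change 0.09, SE 0.10, adjusted p = 0.57), with a value of -0.07 on rescaled FPKM. CDK2 was at 61.1, 58.3 and 57.4 CPM in siControl and 50.5, 52.1 and 45.9 CPM in siPSF, without overlap. The difference of -0.25 (SE 0.09) was short of the threshold at an adjusted p of 0.071. CDK4 averaged 501 ± 36.3 CPM in siControl and 489.8 ± 15.9 CPM in siPSF (mean ± SD, n = 3), and its log2 fold change was -0.03.

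**Figure D3:**
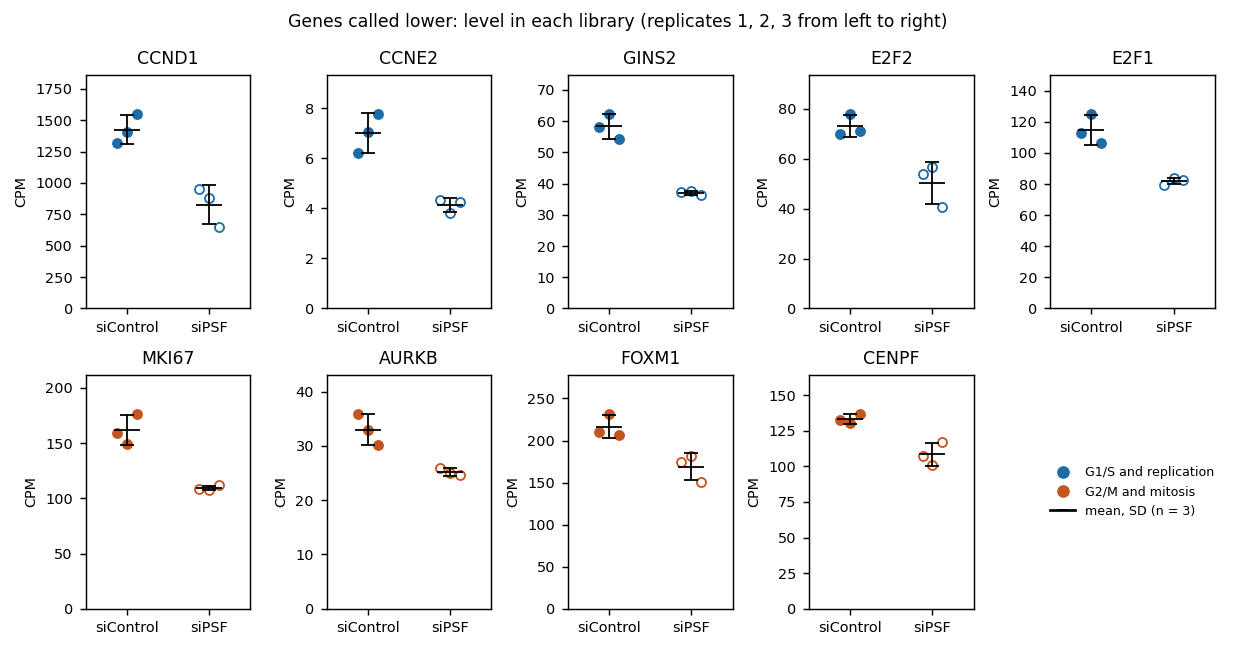
Level in CPM of the 9 genes called lower, in each siControl library (filled points) and each siPSF library (open points), with the mean and SD of 3 libraries as bars. In every panel the 3 siPSF points lie below the 3 siControl points, and siPSF 3 is set below the other siPSF points for CCND1, E2F2 and FOXM1.

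The MCM2-7 helicase unwinds DNA at the fork, and CDC45 and the GINS complex complete it. All 6 MCM genes had negative log2 fold changes, from -0.11 for MCM5 to -0.27 for MCM4, and 0 of 6 were called. MCM4 was at 219, 224 and 224 CPM in siControl and at 195, 194 and 163 CPM in siPSF (adjusted p = 0.057). The controls were tightly grouped and all 3 siPSF values lay below them. MCM3 was at 356, 371 and 348 CPM and at 315, 318 and 288 CPM, likewise without overlap (log2 fold change -0.22, adjusted p = 0.086). MCM6 was at 119, 109 and 111 CPM in siControl and 103, 96.3 and 106 CPM in siPSF, a gap smaller than the spread within each group (log2 fold change -0.15, adjusted p = 0.23). MCM2 was at 233, 232 and 198 CPM and at 188, 204 and 184 CPM, with siControl 3 inside the siPSF range (log2 fold change -0.20, adjusted p = 0.15). MCM5 and MCM7 overlapped between groups, with log2 fold changes of -0.11 and -0.13. The call on these subunits depended on the scaling: with library totals alone MCM2, MCM3 and MCM4 were called lower (log2 fold changes -0.28, -0.30 and -0.35), and on FPKM with equal library sums all 6 were, while the median of all genes itself moved to -0.07 and -0.16 in those fits.

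GINS2 had the smallest p of the 43 genes. It was at 58.3, 62.5 and 54.2 CPM in siControl and at 37.3, 37.5 and 36.3 CPM in siPSF. The siPSF libraries agreed closely and lay well under the lowest control, and GINS2 fell by 0.66 on the log2 scale (SE 0.09, adjusted p = 5.6e-04), which is 63.4% of the siControl level. Its partners in the complex are not among the 43 and, except for GINS4, were chosen after their values were seen. GINS4 and GINS1 were called lower (log2 fold changes -0.44 and -0.38, adjusted p = 0.0079 and 0.016), and GINS3 was at -0.29 with an adjusted p of 0.051. CDC45 was also called lower, at 49.1, 49.9 and 46.8 CPM against 38.8, 39.5 and 35.6 CPM (log2 fold change -0.36, adjusted p = 0.017). Without siControl 2 the calls on GINS1 and CDC45 were lost (adjusted p = 0.065 and 0.071), as was that on CDC45 without siPSF 1 (0.054), while GINS3 was called without siPSF 3 (0.043) and in all 8 fits that used other settings on the same libraries.

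The factors that load the helicase and clamp the polymerase differed less. CDC6, which loads MCM2-7 at origins, was at 62.5, 62.7 and 65.5 CPM in siControl and at 55.2, 55.5 and 56.1 CPM in siPSF. The groups did not overlap, but the log2 fold change of -0.19 (SE 0.08) was not called at an adjusted p of 0.12. PCNA, the sliding clamp of the polymerases, averaged 217 ± 4.92 CPM in siControl and 216 ± 19.1 CPM in siPSF (mean ± SD, n = 3), and its log2 fold change was 0.00 with a standard error of 0.09. CDT1, the licensing factor, averaged 66.1 ± 8.90 and 65.4 ± 3.13 CPM (log2 fold change -0.02, SE 0.10).

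Of the genes for nucleotide supply, 0 of 3 were called. RRM2, the regulated subunit of ribonucleotide reductase, was at 122, 119.9 and 129.7 CPM in siControl and at 113, 107 and 111 CPM in siPSF. The groups did not overlap (log2 fold change -0.17, SE 0.08, adjusted p = 0.18). RRM1, the catalytic subunit, and TYMS, which makes thymidylate, both had log2 fold changes of -0.05 with overlapping libraries.

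In the G2/M and mitosis set, MKI67 fell the most. It encodes Ki-67, the coat protein of mitotic chromosomes that is used as a marker of proliferation. MKI67 was at 159, 149 and 176 CPM in siControl and at 109, 108 and 112 CPM in siPSF. The siPSF libraries lay close to each other and far below the controls, and MKI67 fell by 0.56 on the log2 scale (SE 0.08, adjusted p = 0.0012). TOP2A, the topoisomerase that untangles the chromosomes, averaged 195 ± 15.9 CPM in siControl and 188 ± 14.7 CPM in siPSF (mean ± SD, n = 3), a log2 fold change of -0.05 (SE 0.09).

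FOXM1, the transcription factor of the G2/M genes, was at 210.4, 232 and 207 CPM in siControl and at 174, 182 and 151 CPM in siPSF. The groups did not overlap and FOXM1 fell by 0.36 on the log2 scale (SE 0.09, adjusted p = 0.023). AURKB, the kinase of the chromosomal passenger complex, was at 35.9, 32.9 and 30.2 CPM in siControl and at 26.0, 25.02 and 24.7 CPM in siPSF. All siPSF values lay below the controls, and AURKB fell by 0.39 on the log2 scale (SE 0.10, adjusted p = 0.018). CENPF, a large kinetochore protein, was at 132, 130.4 and 137 CPM in siControl and at 107, 101 and 117 CPM in siPSF, and it fell by 0.30 on the log2 scale (SE 0.08, adjusted p = 0.032). Each of these 3 calls was lost when 1 or another library was left out. Over the fits without 1 library, the log2 fold changes stayed negative. They ran from -0.41 to -0.28 for FOXM1, -0.45 to -0.32 for AURKB and -0.36 to -0.25 for CENPF. FOXM1 was lost without siControl 2 (adjusted p = 0.096) or siPSF 1 (0.054). AURKB was lost without siControl 1 (0.068), siControl 2 (0.061) or siPSF 2 (0.052). CENPF was lost without any 1 library other than siPSF 3 (adjusted p from 0.069 to 0.12). The count of G2/M genes called lower thus went from 4 to 1 without siControl 2 and to 2 without siControl 1, siPSF 1 or siPSF 2.

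KIF11, the motor that pushes the spindle poles apart, had 1 library that stood apart. It was at 51.8, 48.4 and 59.0 CPM in siControl and at 36.9, 31.5 and 54.4 CPM in siPSF. The first 2 siPSF libraries lay below every control and siPSF 3 lay inside the control range, so that KIF11 was not called (log2 fold change -0.37, SE 0.16, adjusted p = 0.15). Without siPSF 3 it was called lower, at -0.63 (adjusted p = 0.0012). The other motor and microtubule genes, KIF20A, KIF23, TPX2 and NUSAP1, which act in the spindle and in cytokinesis, had log2 fold changes from -0.10 to -0.01 with overlapping groups.

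Of the other kinetochore and checkpoint genes, none was called. CENPE, the kinetochore motor, was at 17.6, 15.4 and 18.7 CPM in siControl and at 15.7, 12.7 and 12.98 CPM in siPSF. The ranges overlapped through siControl 2 and siPSF 1 (log2 fold change -0.32, SE 0.12, adjusted p = 0.093). BUB1, a spindle checkpoint kinase, was at 34.2, 27.6 and 32.7 CPM against 28.2, 23.8 and 27.8 CPM, with overlap (log2 fold change -0.24, adjusted p = 0.16). The log2 fold change was -0.06 for BUB1B, also of the checkpoint, and -0.07 and -0.14 for the mitotic kinases PLK1 and AURKA. BIRC5, which encodes survivin, was at a log2 fold change of 0.04, a sign that turned with library totals alone and in the 3 fits on FPKM.

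The cyclins of mitosis and the genes that act on CDK1 contained 0 calls among 5. CCNB1, which encodes cyclin B1, was at 52.2, 50.6 and 49.8 CPM in siControl and at 56.7, 53.4 and 55.8 CPM in siPSF. Its values are given because it was the only one of the 43 with every siPSF library above every control, but the log2 fold change of 0.12 (SE 0.08) did not pass the test (adjusted p = 0.36), and it was -0.07 on rescaled FPKM. The log2 fold change was -0.11 for CCNB2, the other B cyclin, and -0.14 for CCNA2, the cyclin of S phase and G2, with overlapping groups. CDK1 itself was at 0.05, and below zero with library totals alone and in the 3 fits on FPKM. CDC25C, the phosphatase that activates CDK1, was at 17.8, 14.99 and 14.3 CPM against 13.5, 14.9 and 11.9 CPM, with overlap (log2 fold change -0.22, adjusted p = 0.25). CDC20 and UBE2C, which serve the anaphase-promoting complex, had log2 fold changes of -0.09 and -0.04.

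**Figure D4:**
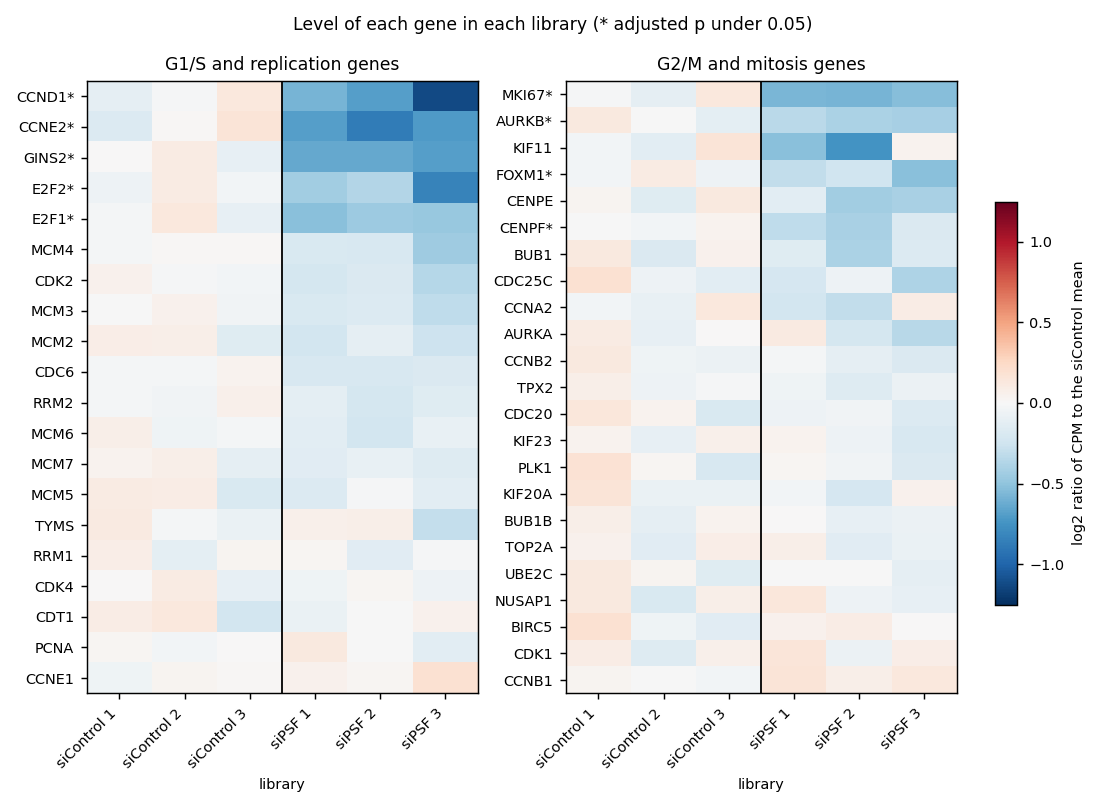
Log2 ratio of each library's CPM to the mean of the siControl libraries, for each gene (rows, ordered by fold change) and library (columns), with blue below and red above the control mean. In the left panel the darkest blue in the siPSF columns belongs to CCND1, CCNE2, GINS2, E2F2 and E2F1, and in the right panel KIF11 is blue in siPSF 1 and 2 but not in siPSF 3.

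Most G1/S genes lay below the control mean in each siPSF library. The median log2 ratio to the siControl mean was -0.18, -0.17 and -0.22 in siPSF 1, 2 and 3, and 16, 17 and 18 of the 20 genes lay below that mean. The siControl libraries had medians of 0.00, 0.02 and -0.04, all above the siPSF values. They make up the reference mean, so their closeness to zero was fixed in advance. For the G2/M genes the medians were -0.04, -0.14 and -0.17 in siPSF and 0.10, -0.08 and 0.00 in siControl. Those ranges overlapped, since siPSF 1 lay above siControl 2. Summed over the set, the G1/S genes took 4811, 4933 and 4812 CPM in siControl and 4079.7, 4061 and 3610.1 CPM in siPSF. CCND1 was the largest share of these sums and made up a large part of their fall. It averaged 1425 CPM in siControl and 828 CPM in siPSF. The G2/M genes summed to 2006, 1848 and 1896 CPM in siControl and 1783, 1682 and 1695 CPM in siPSF, without overlap. The called genes MKI67, FOXM1 and CENPF made up a large part of the fall in the G2/M sums. They averaged 162, 216 and 133 CPM in siControl and 109, 169 and 108 CPM in siPSF.

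Levels per length differed widely among the 43 genes. In siControl the highest were CCND1 (314 FPKM), MCM7 (267 FPKM), CDK4 (249.9 FPKM) and PCNA (158 FPKM), and the lowest were CENPE (1.95 FPKM) and CCNE2 (2.42 FPKM). The genes that fell were found at both ends of this order, with CCND1 first and CCNE2 in place 42. Gene lengths in RefSeq ran from 4.22 kb for CDC20 to 92.5 kb for CENPE with a median of 17.2 kb, and 0 of 43 reached 100 kb.

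Among other genes of DNA replication outside the list, several also fell. Of 54 tested, 15 fell and 0 rose (27.8% lower), with a median of -0.16. Among all genes tested, 8.27% were called lower and 6.65% higher. The list was chosen with earlier results of these data known. TICRR, which fires origins together with TOPBP1, fell from 34.5 ± 1.01 to 22.4 ± 1.05 CPM (mean ± SD, n = 3; log2 fold change -0.62, adjusted p = 9e-04). POLA2, a subunit of the polymerase that primes synthesis, fell by 0.58 on the log2 scale, and CLSPN, which encodes the checkpoint mediator claspin, fell by 0.52 (adjusted p = 0.0015 and 0.0025). Of 62 other mitosis genes, a list chosen in the same way, 10 fell and 0 rose (16.1% lower, beside 8.27% of all genes tested). Their median was -0.13. ANLN, which encodes the cytokinetic scaffold anillin, fell by 0.78 on the log2 scale (adjusted p = 4.6e-04), from 35.2 ± 3.27 to 20.5 ± 1.205 CPM. KNL1, a kinetochore scaffold, and CIT, a kinase of cytokinesis, both fell by 0.46 on the log2 scale, and SMC4, a condensin subunit, by 0.35 (adjusted p = 0.0089, 0.0098 and 0.019). SMC4 was not called without siControl 3 (0.060) or siPSF 2 (0.057).

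Among 20 regulators of cell cycle transcription, 3 fell (15%, beside 8.27% of all genes tested) and 0 rose, with a median of -0.12. MYBL2, which encodes B-MYB, averaged 358 ± 36.9 CPM in siControl and 269 ± 21.8 CPM in siPSF (mean ± SD, n = 3; log2 fold change -0.41, adjusted p = 0.016), and was lost without siControl 2 (0.071) or siPSF 1 (0.053). LIN52, a subunit of MuvB, fell by 0.53 on the log2 scale and E2F8, a repressor of E2F targets, by 0.52 (adjusted p = 0.0038 and 0.0053).

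The remaining G1 genes and CDK inhibitors had a median log2 fold change of 0.06 over 15 genes. Of these, 2 were called higher (13.3%) and 1 lower (6.67%), beside 6.65% and 8.27% of all genes tested. CCNG1, which encodes cyclin G1 and is a target of p53, rose from 83.9, 71.0 and 92.3 CPM to 156, 136 and 146 CPM (log2 fold change 0.83, adjusted p = 3.6e-04). FBXW7, the ubiquitin ligase subunit that degrades cyclin E, rose by 0.33 on the log2 scale (adjusted p = 0.034), and CDC25A, the phosphatase of CDK2, fell by 0.41 (adjusted p = 0.0049). The call on FBXW7 was lost without siControl 1, siControl 2, siPSF 1 or siPSF 2 (adjusted p from 0.063 to 0.16), and with library totals alone and in the 3 fits on FPKM (0.09 to 0.36). CDKN1A, which encodes the CDK inhibitor p21 and was chosen after its values were seen, was at 612, 671 and 570.4 CPM in siControl and at 894, 1027 and 491 CPM in siPSF. The first 2 siPSF libraries lay above and siPSF 3 below all controls, so the gene was not called (log2 fold change 0.38, SE 0.20, adjusted p = 0.23). Without siPSF 3 it was called higher at 0.64 (adjusted p = 6.2e-04).

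Of 12 genes of the G2 checkpoint, 2 fell (16.7%) and 1 rose (8.33%), with a median of 0.03. Among all genes tested the shares were 8.27% and 6.65%. PKMYT1 and WEE1, the kinases that hold CDK1 inactive, fell by 0.30 and 0.32 on the log2 scale (adjusted p = 0.041 and 0.049), and CHEK2, a kinase of the DNA damage response, rose by 0.36 (adjusted p = 0.030). Each of these 3 calls was kept without only 1 of the 6 libraries and lost without each of the others, with adjusted p up to 0.14, 0.16 and 0.15. CHEK2 was also not called with library totals alone and in the 3 fits on FPKM (0.069 to 0.29), nor WEE1 without a filter on low counts (0.055).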

How the data were processed

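The study prepared poly(A)-selected libraries from SH-SY5Y cells and sequenced them. The authors deposited 1 table that holds, for each gene, the read count of every library without normalization and its FPKM, named RPKM in the methods. The sources differ on how the counts were made: the study's methods name Bowtie 2, TopHat, hg38 and RefSeq, and the submitters' processing notes name Trimmomatic, HISAT2 2.1.0, StringTie 2.1.3b and GRCh38. Whether strand was used in counting is not given in the sources used here, so overlapping genes are uncertain. Every gene in the table has at least 1 count in every library. FPKM per count differed from its median by over 5% for CDC6 (6.26%) and NUSAP1 (11.1%).

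Groups and replicate numbers were taken from the sample titles. Counts were filtered with filterByExpr, scaled by TMM (factors 0.964 to 1.05) and tested with edgeR 4.0.16 (quasi-likelihood test, treatment as the only term, R 4.3.3) over all genes, with Benjamini-Hochberg adjustment. The script was tested on simulated data. The members and the other lists were chosen with earlier results of these data known. All 43 members are named. Values in every library are given for called members and for the uncalled ones with the smallest p, up to 20 in all, and up to 4 called genes, those with the smallest p, are named from each other list. Outside this rule, the values of CCNB1 in every library and the genes GINS1, GINS3, CDC45, CDKN1A, HAND2 and GATA2 were chosen after their values were seen. The values of 1 marker gene are not reported here. Mean and SD are over 3 libraries. Alternatives were leaving out each library, a replicate block, DESeq2 size factors, library totals alone, no filter, DESeq2 1.42.0 (Wald test), and limma 3.58.1 on log2(FPKM + 0.5), on log2(FPKM + 0.1) and on FPKM rescaled to the same sum, for genes with a mean FPKM of at least 0.5. No 2 libraries agreed within sampling noise (chi-square per degree of freedom 22.6 or more within groups). Promoter windows were searched on both strands, and 4 of 4 checked on chromosome 1 matched the genome.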

Additional observations from a re-analysis of the deposited data

How the results depend on the processing

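The 9 calls held in all 8 fits that kept every library, and 0 of the 43 genes were called higher in any fit. The number of G1/S genes called lower rose from 5 to 10 with library totals alone and with limma on log2(FPKM + 0.5) or log2(FPKM + 0.1), and to 15 on rescaled FPKM, where the G2/M number rose from 4 to 10. The G1/S median was then -0.26, -0.24, -0.25 and -0.36, and the G2/M median -0.17, -0.17, -0.17 and -0.28, while the median of all genes moved from 0.01 to -0.07, -0.06, -0.06 and -0.16. Relative to it, the sets stayed within -0.21 to -0.18 and -0.15 to -0.07 in every fit. Library totals added MCM2, MCM3, MCM4, CDC6 and CDK2, and both offsets on FPKM added MCM2, MCM3, MCM4, RRM2 and CDK2. DESeq2's Wald test called 7 G1/S and 5 G2/M genes lower, adding MCM4, CDK2 and CENPE, with 2065 adjusted p-values left as NA. Over all genes, 1310 were called higher and 1628 lower (55.4% of calls lower), against 831 higher with library totals alone (73.2% lower), 736 and 737 with limma on log2(FPKM + 0.5) and log2(FPKM + 0.1) (70.8% and 70.6% lower), and 462 higher and 3410 lower on rescaled FPKM (88.1% lower).

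Leaving out single libraries gave 572 to 1405 genes higher and 928 to 1735 lower, both lowest without siControl 2, 4 to 5 G1/S genes and 1 to 5 G2/M genes lower, and medians from -0.20 to -0.17 and from -0.14 to -0.05. With the replicate block the 5 G1/S calls stood and the G2/M number was 5, with KIF11 added (log2 fold change -0.41, adjusted p = 0.036), and the medians were -0.18 and -0.10. Whether the replicate numbers pair the libraries was not settled. Over 14679 genes of at least 1 CPM, the deviations of same-numbered libraries from their group means correlated at -0.04, 0.20 and 0.10. Over the 43 genes they correlated at 0.07, 0.62 and 0.26. In both, not every library correlated best with its own number. With 3 libraries per group, such correlations cannot exclude pairing.

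Values that changed sign belonged to genes near zero that were not called. On leaving out 1 library they ran from -0.0685 to 0.0604 for PCNA, -0.127 to 0.0417 for CDT1, -0.111 to 0.0017 for RRM1, -0.110 to 0.0656 for TYMS, -0.0861 to 0.0126 for CDK4, -0.0323 to 0.113 for CDK1, -0.169 to 0.0207 for PLK1, -0.122 to 0.0218 for KIF20A, -0.0307 to 0.146 for BIRC5, -0.117 to 0.0218 for UBE2C and -0.110 to 0.0504 for NUSAP1. With library totals alone, log2(FPKM + 0.5), log2(FPKM + 0.1) and rescaled FPKM, CDK1 was at -0.0268, -0.0299, -0.0303 and -0.143, and BIRC5 at -0.0347, -0.0298, -0.0301 and -0.143. On rescaled FPKM, CCNE1 was at -0.0723 and CCNB1 at -0.0720. The cause was not tested. With 3 libraries per group, a common biological coefficient of variation of 12.6% limits which of the small differences could be called.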
